A study of Homo sapiens with 30 samples.

Results

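The contacts of S4, one of the numbered CTCF sites at the NOTCH1 locus, were compared between K562 cells mutated at S4 and S5 together and wild-type K562 cells. The 4 libraries were those whose labels give S4 as the viewpoint and either WT (2 libraries) or the S4-S5 mutant (2 libraries) as the genotype, of 30 libraries in the series. The other 26 cover 3 further mutants (S2, S4 and S5) at the same viewpoint and all 5 genotypes at the S2 and promoter viewpoints. K562 is an established human line derived from chronic myelogenous leukemia, and both groups were the same line in the same medium without treatment. The series describes the mutated sites as depleted of CTCF. How the sites were altered, whether a mutant is 1 clone, and where S5 lies are not stated in the labels or notes. The S4 viewpoint lies at a site that is mutated in the double mutant, so the contacts described are those of the mutated place itself.

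CTCF binds DNA at an asymmetric motif and halts cohesin as it extrudes chromatin loops, so pairs of CTCF sites often form the anchors of a loop or the ends of a contact domain. Loss of a site can weaken its loop, let contacts cross the former boundary, or shift contacts to the next site. NOTCH1 encodes a transmembrane receptor that is cleaved after it binds a ligand on a neighbouring cell, and its intracellular part then enters the nucleus and activates transcription. In 4C-seq, crosslinked chromatin is cut, nearby ends are ligated, and everything ligated to 1 chosen fragment, the viewpoint, is amplified and sequenced. Each read is counted at a fragment end, the side of a restriction fragment that was joined to the viewpoint. Here the first cut was with DpnII, whose site is GATC.

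All positions of contacts are hg19 coordinates as deposited. The S4 viewpoint was centred on chr9:139523746, the S2 viewpoint on chr9:139385872, 137.9 kb to the centromeric side, and the promoter viewpoint on chr9:139443268, 80.5 kb to the centromeric side. NOTCH1 is on the minus strand and 51.6 kb long in RefSeq's GRCh38.p14 annotation. It is read from the promoter toward the S2 side. In that annotation the next protein-coding genes beyond its end are SEC16A, INPP5E and PMPCA, and those upstream of its start, on the S4 side, are EGFL7, AGPAT2 and DIPK1B. Gene models of hg19 were not used here, so no bin below is assigned to an exon or intron.

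The NOTCH1 promoter is shown because it is the gene start between the 2 sites whose contact is measured below. It is the 250 bases before the RefSeq start (GRCh38.p14, chr9:136546049-136546298, minus strand, written 5′ to 3′ on the gene's strand), with the letters CCCTC or their reverse complement GAGGG, which occur in the core of the CTCF motif, in capitals.
NOTCH1 promoter: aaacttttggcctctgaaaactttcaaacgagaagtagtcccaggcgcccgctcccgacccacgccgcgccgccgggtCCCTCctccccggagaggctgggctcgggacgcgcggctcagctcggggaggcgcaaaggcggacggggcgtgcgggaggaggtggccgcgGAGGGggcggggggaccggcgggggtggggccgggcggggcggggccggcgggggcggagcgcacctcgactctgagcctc
These letters occurred 2 times in the NOTCH1 window, counting both strands, and at least once in 66.6% of the 35116 RefSeq promoter windows of the same length. At least as many as in NOTCH1 occurred in 37.8% of the windows. A match of 5 letters is not a binding site. The DpnII letters GATC did not occur in it, against 35.8% of the windows that hold them, so this stretch itself held no cut site in the reference.

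The WT libraries held 1600859 and 2212517 reads on chromosome 9 and the S4-S5 libraries 4681014 and 6824631. Fragment ends within 5 kb of the viewpoint were left out, and the remaining reads up to 500 kb away, called near-cis, numbered 798736 and 1113164 in WT and 1765276 and 2595759 in the mutant. These covered 3290 fragment ends. Contacts are given below as the share of a library's near-cis reads. The replicates were close to identical, with a correlation of log2(reads + 1) over near-cis ends of 0.994 in each genotype, while WT and S4-S5 libraries correlated at 0.611 to 0.623. Counts of the paired libraries still differed by more than sampling noise (chi-square per degree of freedom 6.74 in WT and 10.7 in the mutant), so each was kept as 1 sample. The protocol calls them independent libraries without saying what was repeated, so p-values reflect only how far paired libraries differ, and that spread may be technical. With 2 samples against 2, an exact permutation test cannot give a two-sided p below 0.333, so tests were taken from edgeR's quasi-likelihood fit over all bins, with Benjamini-Hochberg adjustment and a threshold of 0.05.

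The libraries also differed in ways that touch every result below. The masked 5 kb took 32.1% and 31.4% of chromosome 9 reads in WT and 57.3% and 56.8% in the mutant, and the single most covered end took 24.4% to 25.5% and 50.7% to 51.3%. A read was found at 57.5% and 57.6% of near-cis ends in WT and at 42.2% and 45.5% in the mutant, although the mutant libraries were deeper. Thinned to 424277 near-cis reads each, WT libraries covered 55.2% and 53.8% of ends and S4-S5 libraries 35.5% and 36.1%. The 100 most covered ends held 37.1% and 39.3% of near-cis reads in WT and 54.6% and 54.5% in the mutant. The S2, S4 and S5 mutants lay on the mutant side of these measures, with 41.3%, 47.7% and 43.4% of near-cis ends covered (mean, n = 2). The part of this difference in the results was not tested.

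In the S4-S5 mutant S4 contacted a few places near S2 and beside the viewpoint more, and most places beyond them less. Of 97 bins of 10 kb tested, 22 were higher and 64 lower than in WT. This is 88.7% of bins (22.7% higher, 66.0% lower), so passing the test does not by itself set a bin apart, and the sizes and positions of the changes are described instead. The median log2 fold over all bins was -0.43, and 37 changed bins differed by 2-fold or more, of which 35 were lower. The other scalings were by chromosome 9 reads outside the masked 5 kb (chromosome 9 scaling below), by TMM factors and by DESeq2 size factors. They moved the median to -0.16, -0.19 and -0.16, and the share of higher among changed bins from 25.6% to 42.2%, 39.3% and 41.8%. No scaling counted the masked reads, which took a larger share in the mutant.

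**Figure D1:**
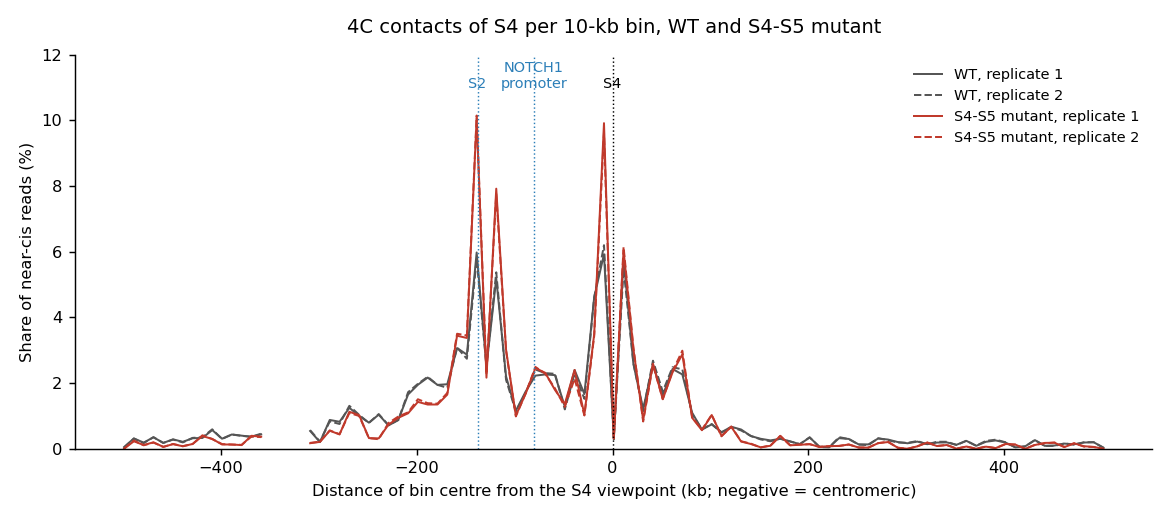
Share of near-cis reads (%) in each 10-kb bin against the distance of its centre from the S4 viewpoint (kb, negative toward the centromere) for both WT and both S4-S5 libraries, with dotted lines at S2, the promoter and S4. The peak at S2 stands at 5.98% and 5.79% in WT and 10.1% and 10.2% in the mutant, and the lines of replicates overlie each other. The line breaks where bins did not pass the filter.

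The contact with S2 was higher in the double mutant. The bin holding S2, chr9:139380001-139390000, took 5.98% and 5.79% of near-cis reads in WT and 10.1% and 10.2% in the mutant. Both mutant libraries lay above both WT libraries, and this bin was the highest outside 50 kb of the viewpoint in both genotypes. The means were 5.88% ± 0.134 and 10.1% ± 0.0522 (SD, n = 2), a 1.72-fold rise (log2 0.78, SE 0.025, edgeR adjusted p = 4.18e-15). Relative to chromosome 9 reads outside the masked region the log2 fold was 1.05. The number of ends with a read could not rise here, since all 27 ends of the bin had one in both WT libraries and 26 and 27 in the mutant.

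The rise in the S2 bin was uneven over its fragment ends and did not rest on 1 of them. Of its 27 ends, 17 were higher in both mutant libraries than in both WT libraries, 8 were lower and 2 overlapped. A lack of overlap between the groups was common here, and by reads it held for 87 of the 97 bins. The share of all near-cis ends without overlap is not given. Whether such counts of ends, in this bin or in those below, are unusual was therefore not tested. The end at chr9:139383704 rose most, from 0.894% and 0.842% of near-cis reads to 2.03% and 2.04%. The next were the end at chr9:139388323, at 0.554% and 0.572% in WT and 1.20% and 1.21% in the mutant, and the end at chr9:139385262, at 0.234% and 0.267% and then 0.820% and 0.819%. These 3 ends made up 56.2% of the bin's rise. Some ends moved the other way within the same kilobases: the end at chr9:139384423 took 0.202% and 0.212% in WT and 0.00861% and 0.00871% in the mutant. The most covered end of the bin held 15.8% and 18.6% of the bin's reads in WT and 20.2% and 20.1% in the mutant.

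**Figure D2:**
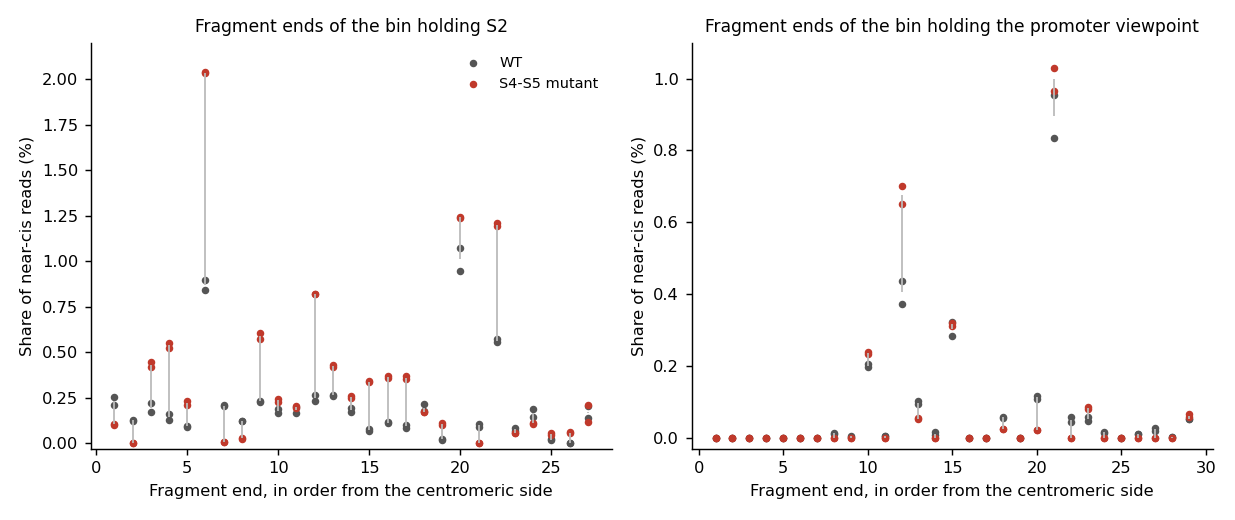
Share of near-cis reads (%) at each fragment end of the bin holding S2 (left, 27 ends) and of the bin holding the promoter viewpoint (right, 29 ends), in order from the centromeric side, with 1 point per library and a grey line joining the group means. In the S2 bin 17 ends are higher in both mutant libraries, and in the promoter bin 5 are.

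The bins around S2 did not all follow it. On the centromeric side, chr9:139370001-139380000 went from 2.87% and 2.74% to 3.38% and 3.45% (log2 0.28, adjusted p = 1.21e-07), and chr9:139360001-139370000 from 3.07% and 3.08% to 3.44% and 3.50% (log2 0.18). The latter rise turned to -0.28 on non-blind ends, the ends of fragments that also hold a site of the second enzyme. On the telomeric side, chr9:139390001-139400000 went from 2.51% in both WT libraries to 2.17% and 2.26% (log2 -0.18, adjusted p = 5.42e-05). That fall turned to 0.08, 0.06 and 0.09 under the other 3 scalings. Over 20 kb around S2 the share was 8.22% and 8.15% in WT and 12.7% and 12.9% in the mutant, a log2 fold of 0.64 (SE 0.017, edgeR adjusted p = 1.9e-12).

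The next largest rise of an interval was in the stretch between S2 and the promoter, where the NOTCH1 gene is read toward S2. From 10 kb beyond S2 to 10 kb before the promoter viewpoint (chr9:139395873-139433268, 37.4 kb), S4 contacts took 10.3% of near-cis reads in both WT libraries and 13.2% and 13.0% in the mutant. The log2 fold was 0.36 (SE 0.016, edgeR adjusted p = 4.67e-10), and it was 0.62, 0.32 and 0.35 under chromosome 9, TMM and DESeq2 scaling. Within it, chr9:139400001-139410000 held the second WT peak outside 50 kb, at 5.19% and 5.37%, and rose to 7.92% and 7.77% (log2 0.57, adjusted p = 2.81e-12). In this bin 14 of 38 ends were higher in both mutant libraries and 16 were lower. The end at chr9:139409835 took 0.273% and 0.290% in WT and 1.24% and 1.22% in the mutant, and that at chr9:139407774 took 0.298% and 0.348% and then 1.23% and 1.24%.

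Contact with the NOTCH1 promoter rose slightly as a share of near-cis reads and more under the other 3 scalings. All of these leave out the masked reads. The bin holding the promoter viewpoint, chr9:139440001-139450000, took 2.23% and 2.41% in WT and 2.46% and 2.49% in the mutant, so that the mutant values lay just above both WT values. Its log2 fold was 0.09 (SE 0.038, edgeR adjusted p = 0.031), and it was 0.36, 0.33 and 0.36 under chromosome 9, TMM and DESeq2 scaling (adjusted p = 1.61e-07, 1.26e-08 and 6.42e-16). Under near-cis scaling the call did not hold without WT replicate 1 (log2 0.04, adjusted p = 0.378) or without either mutant library (0.10 and 0.08, adjusted p = 0.064 and 0.13). The bins to its centromeric and telomeric side did not pass the test (log2 -0.03, adjusted p = 0.327, and 0.01, adjusted p = 0.76), and were 0.20 to 0.24 and 0.25 to 0.28 under the other 3 scalings. Over 20 kb around the promoter the shares were 3.90% and 4.04% in WT and 3.89% and 3.94% in the mutant (log2 -0.02, adjusted p = 0.447), and this value was 0.24 when scaled to chromosome 9. From there to 50 kb before S4 the share rose from 4.45% and 4.55% to 4.88% and 4.89% (log2 0.12, adjusted p = 5.97e-06), which turned to -0.19 on non-blind ends. Of the 29 ends of the promoter bin, 5 were higher in both mutant libraries, 12 were lower and 12 overlapped. The end at chr9:139446940 alone held 37.5% and 39.6% of the bin's reads in WT and 39.3% and 41.3% in the mutant.

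**Figure D3:**
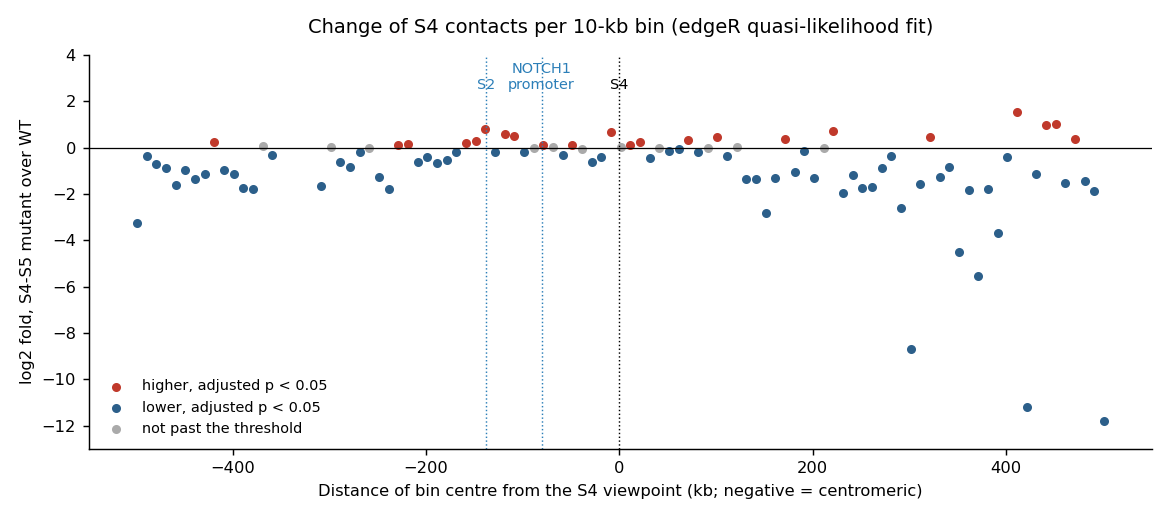
Log2 fold of the S4-S5 mutant over WT for each of 97 bins of 10 kb against the distance of its centre from the S4 viewpoint (kb, negative toward the centromere), coloured by whether the bin passed an edgeR adjusted p of 0.05. Rises reach 0.78 near S2 and beside S4, and 1.52 in a thinly covered bin 411.3 kb telomeric. Of the 57 bins over 200 kb away, 9 were higher and 44 lower.

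Beside the viewpoint the change was uneven. The bin on its centromeric flank, chr9:139510001-139520000, rose from 5.92% and 6.20% to 9.92% and 9.63% (log2 0.69, SE 0.027, edgeR adjusted p = 7.57e-14). The S2, S4 and S5 mutants were also above WT there, with means of 8.44%, 9.58% and 8.95%. The double mutant did not differ from the S4 mutant past the test (log2 0.03, edgeR adjusted p = 0.313). Of the 32 ends of this bin only 6 were higher in both S4-S5 libraries and 22 were lower. The end at chr9:139518004 went from 0.524% and 0.620% to 2.37% and 2.39%, and that at chr9:139518567 from 1.02% and 1.03% to 2.83% and 2.39%. Both lie within 6 kb of the viewpoint centre, just outside the masked region. The next bin, chr9:139500001-139510000, fell from 4.61% in both WT libraries to 3.49% and 3.43% (log2 -0.41, adjusted p = 5.28e-11). On the telomeric flank, chr9:139530001-139540000 rose by log2 0.11 (5.79% and 5.49%, then 6.04% and 6.15%) and chr9:139540001-139550000 by 0.24 (2.59% and 2.62%, then 3.05% and 3.09%). The first of these was 0.03 and did not pass the test with the highest ends capped. Over 5 to 50 kb the rise was log2 0.13 on the centromeric side and 0.06 on the telomeric side. With a mask of 20 kb the centromeric value turned to -0.33, and with TMM factors the telomeric one was 0.02 and did not pass the test.

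Away from these regions S4 contacts fell on both sides. Beyond 100 kb to the centromeric side of S2, up to the end of the window, the share went from 10.7% and 10.8% in WT to 6.84% and 6.79% in the mutant (log2 -0.66, SE 0.012, edgeR adjusted p = 1.15e-13). From 100 to 500 kb on the telomeric side of S4 it went from 9.55% and 9.53% to 5.90% and 5.95% (log2 -0.69, SE 0.014, edgeR adjusted p = 1.5e-13). The groups did not overlap in either interval, and both stayed lower when scaled to chromosome 9 (log2 -0.39 and -0.42). Against the S2 mutant in place of WT the centromeric value was -1.21 and the telomeric one turned to 0.14. Of 10 intervals that divide the near-cis window, 8 passed the test (80.0%), 5 higher and 3 lower. The third lower one was 10 to 100 kb centromeric of S2 (17.0% and 16.8%, then 14.3% and 14.7%, log2 -0.22), which was 0.04 when scaled to chromosome 9. From 50 to 100 kb telomeric of S4 the shares were 6.99% and 7.18% in WT and 7.15% and 7.33% in the mutant (log2 0.03, adjusted p = 0.108). That interval passed, at 0.05 each, without WT replicate 2 or mutant replicate 1.

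The falls by bin were more frequent with distance. Of the 24 bins from S2 to 100 kb telomeric of S4, 9 were higher and 9 lower, with a median log2 fold of -0.03. Of the 22 bins beyond 100 kb centromeric of S2, 1 was higher and 18 lower (median -0.92), and of the 41 bins beyond 100 kb telomeric of S4, 8 were higher and 31 lower (median -1.30). No bin of the first group fell by 2-fold or more, while 9 and 25 bins did in the other groups. Covered ends were fewer in the mutant at every distance. The share of ends with a read was 94.0% and 94.4% in WT and 77.8% and 79.7% in the mutant at 5 to 50 kb, and 79.4% and 80.5% against 63.3% and 66.2% at 50 to 100 kb. It was 72.8% and 73.2% against 59.3% and 63.3% at 100 to 200 kb, and 43.6% and 43.4% against 27.9% and 31.2% at 200 to 500 kb.

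The 6 largest falls were all on the telomeric side, with bin centres 301.3 kb or more from S4. The last bin, from chr9:140020001 to the window's edge, held 596 WT reads and none in the mutant, at least 453-fold lower (3 reads over both libraries as the floor), but 100.0% and 99.7% of its WT reads lay at 1 end. The bin chr9:139940001-139950000 held 1411 WT reads and 1 in the mutant (3220-fold lower, 95% exact counting interval 577 to 127000), again with 87.6% and 86.8% of WT reads at 1 end. In chr9:139820001-139830000 the share fell from 0.168% and 0.181% to 0.000453% and 0.000385% (log2 -8.69), and there the most covered end held 35.9% and 38.9% of WT reads. The other 3 were the bins from chr9:139890001 (log2 -5.55), chr9:139870001 (-4.52) and chr9:139910001 (-3.71). In WT these 6 bins took 0.0317% to 0.266% of near-cis reads each. In each of them at least 1 single mutant also lay below WT. From chr9:139870001 the S2, S4 and S5 mutants took 0.584%, 0.000373% and 0.196% (means), against 0.00499% in the double mutant. From chr9:139910001 they took 0.00179%, 0.000885% and 0.118%, against 0.0205%. From chr9:139940001 they took 0.00102%, 0.00233% and 0.000154%. From chr9:139820001 they took 0.183%, 0.0482% and 0.217%, against 0.000419%.

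The largest rises outside the S2 bin and the viewpoint flank were also over 200 kb telomeric, in thinly covered bins. They were the bins from chr9:139930001 (0.0441% and 0.0451% in WT, 0.127% and 0.129% in the mutant, log2 1.52), chr9:139970001 (log2 1.01), chr9:139960001 (0.95) and chr9:139740001 (0.73). Without the most covered end of each bin these values were 0.11, -0.88, 0.07 and -3.82, so each of the 4 rises rested on 1 end. The same step left the S2 bin at 0.77. Of these 4 bins the double mutant was the highest genotype only from chr9:139930001. Its mean there was 0.128%, against 0.00412%, 0.0488% and 0.0676% in the S2, S4 and S5 mutants. From chr9:139970001 these 3 had 0.00558%, 0.197% and 0.136%, against 0.188%. From chr9:139960001 they had 0.229%, 0.0557% and 0.225%, against 0.172%. From chr9:139740001 they had 0.00318%, 0.0662% and 0.150%, against 0.0800%.

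**Figure D4:**
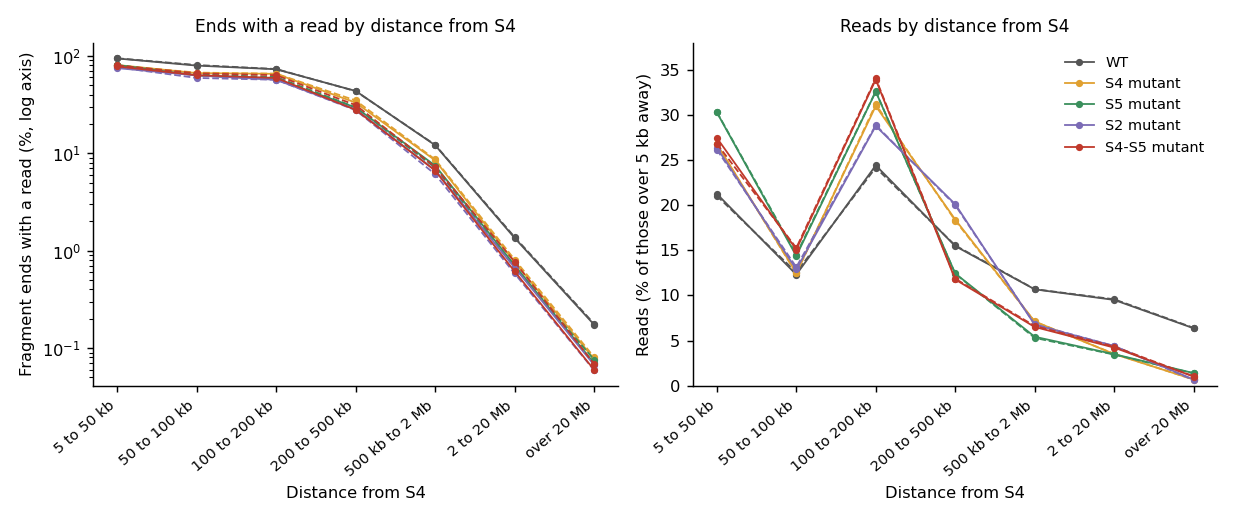
Left, share of fragment ends with at least 1 read (%, log axis) by distance from S4; right, share of the reads over 5 kb from S4 (%) by distance. There is 1 line per library, solid for replicate 1 and dashed for replicate 2. WT lies above all 4 mutants in covered ends at every distance, and the S4-S5 mutant has the largest share of reads at 100 to 200 kb, where S2 lies.

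The 2 genotypes used different sets of fragment ends. Both WT libraries had a read at 1816 near-cis ends and both mutant libraries at 1297, of which 1175 were shared, 64.7% and 90.6% of each set. At 402 ends both WT libraries had a read and neither mutant library did, and these held 5.56% and 4.94% of WT near-cis reads. The reverse was seen at 48 ends, with 0.338% and 0.327% of mutant reads. Of the 402 ends, 243 had a read in the S2, S4 or S5 mutant at this viewpoint and 159 had none in any of the 8 mutant libraries. The same count against WT was 397 ends in the S2 mutant, 336 in the S4 mutant and 384 in the S5 mutant, so a loss of this size was not particular to the double mutant. Of the 97 bins, 86 had fewer covered ends in both mutant libraries than in both WT libraries. These included 19 of the 22 that rose in reads, a share near that of all bins.

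The rest of chromosome 9 took a smaller share of contacts in the mutant. Beyond 500 kb lay 26.6% ± 0.0990 of the reads outside the masked region in WT and 11.9% ± 0.174 in the mutant (SD, n = 2), and the S2, S4 and S5 mutants had 10.2% to 11.8%. Over 10 Mb toward the centromere the share was 8.18% ± 0.0448 and 1.78% ± 0.0166, from 500 kb to 10 Mb centromeric it was 14.5% ± 0.0141 and 8.08% ± 0.106, and beyond 500 kb on the telomeric side it was 3.98% ± 0.0685 and 2.03% ± 0.0523. Of 100 bins of 1 Mb tested, 97 passed (97.0%), 3 higher and 94 lower, with a median log2 fold of -4.38. Scaled to the reads over 500 kb away, 19 were higher and 78 lower, with TMM factors 26 and 65, and with DESeq2 45 and 52 (median -1.23), so the predominance of falls depended on the scaling. Against the S2 mutant 45 were higher and 24 lower.

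Many distant bins were close to empty in the mutant. In 37 of the 100 bins the 2 mutant libraries had at most 10 reads together, where WT had a median of 884. The bins chr9:38000001-39000000, chr9:28000001-29000000 and chr9:83000001-84000000 held 817, 759 and 593 WT reads and none in the mutant, at least 517-fold, 481-fold and 376-fold lower. The single mutants were close to empty there too. In the same order, WT had means of 0.0319%, 0.0287% and 0.0231% of reads outside the mask. The S2 mutant had 0.000200%, 0.000104% and 0.000296%, and the S4 and S5 mutants 7.06e-05% or less. The 3 bins that were higher were chr9:31000001-32000000 (log2 1.40), chr9:86000001-87000000 (0.31) and chr9:113000001-114000000 (0.27), and 2 bins were higher when either mutant library was left out.

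Set beside the single mutants, the double mutant differed from the S4 mutant in all 10 intervals and from the S5 mutant in 7 of 10. S4 contacts with the S2 bin were 8.96% ± 0.127 in the S4 mutant and 10.2% ± 0.0417 in the S5 mutant (SD, n = 2). The double mutant lay above the S4 mutant (log2 0.18, edgeR adjusted p = 3.18e-06) and did not differ from the S5 mutant past the test (-0.01, SE 0.025, adjusted p = 0.696). The far centromeric share was 13.2% ± 0.0753 in the S4 mutant, above WT, and 6.70% ± 0.0363 in the S5 mutant, below it. The double mutant differed from the first by log2 -0.96 and from the second by 0.02, which did not pass the test (adjusted p = 0.0972).

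The stretch between S2 and the promoter was 1 of 5 intervals in which the double mutant stood above both single mutants past the test, and there the difference was largest. Its share was 8.14% ± 0.0787 with S4 mutated, 10.8% ± 0.203 with S5 mutated and 13.1% ± 0.120 with both, log2 folds of 0.69 and 0.28 over them (edgeR adjusted p = 6.19e-13 and 6.41e-09). In the other 4 the differences from the S4 and S5 mutants were 0.36 and 0.11 within 10 kb of the promoter, 0.30 and 0.07 from there to 50 kb before S4, 0.29 and 0.18 from 50 to 100 kb telomeric of S4, and 0.28 and 0.05 within 10 kb of S2. The bin chr9:139400001-139410000 was 0.94 and 0.58 above the S4 and S5 mutants and lay above all 8 other libraries of the viewpoint. The promoter bin was 0.52 above the S4 mutant and 0.02 above the S5 mutant, the latter not past the test (adjusted p = 0.584). From 100 to 500 kb telomeric of S4 the share was 5.19% ± 0.0299 in the S4 mutant and 7.48% ± 0.0995 in the S5 mutant, and the double mutant lay between them at 5.93% ± 0.0378 (log2 0.19 and -0.33).

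**Figure D5:**
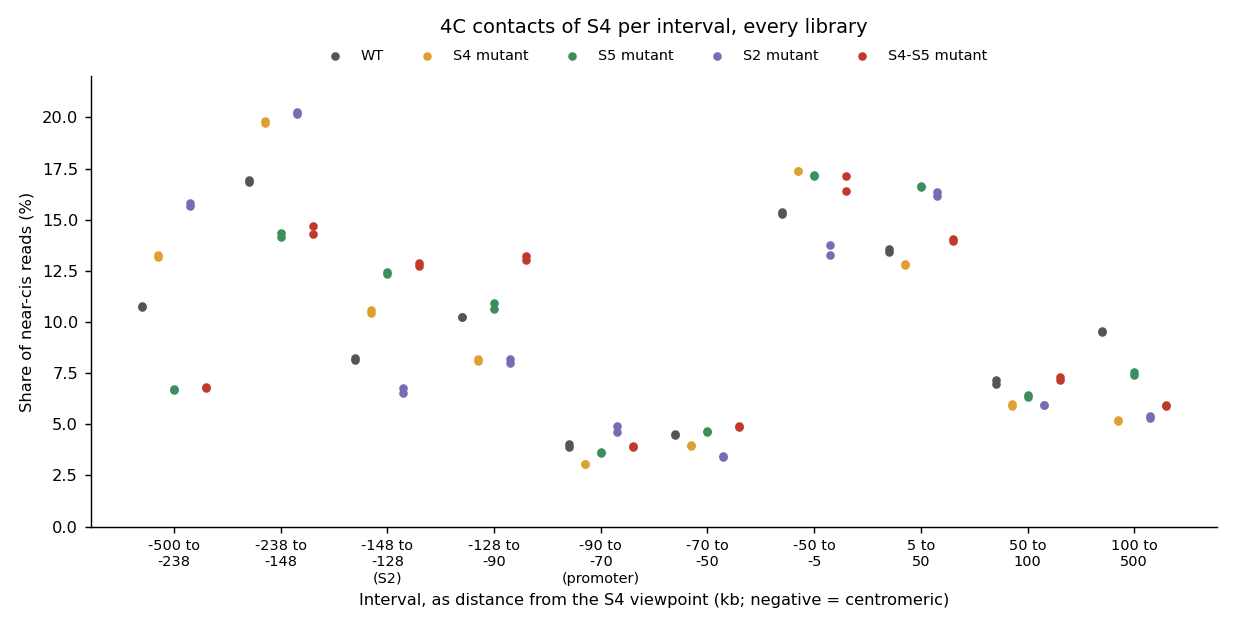
Share of near-cis reads (%) in 10 intervals given by their distance from the S4 viewpoint (kb, negative toward the centromere), with 1 point per library for 5 genotypes. The S4-S5 points sit on the S5 points in the 2 most centromeric intervals and above all other genotypes from -128 to -90 kb.

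Bin by bin, 85 of 97 bins (87.6%) differed between the S4-S5 and S4 mutants, 45 higher and 40 lower, and 86 (88.7%) between the S4-S5 and S5 mutants, 42 higher and 44 lower. The S4 by S5 interaction asks whether the double mutant departs from the sum of the single mutants' log2 folds, and 85 bins (87.6%) passed it, 52 higher and 33 lower (median 0.37). With TMM factors 45 were higher and 41 lower and with DESeq2 46 and 41 (medians 0.07 and 0.08). These comparisons share the mutant libraries. In 8 of the 97 bins both S4-S5 libraries lay above all 8 other libraries of the viewpoint and in 14 below. The same counts for the other genotypes are not given, so whether these are unusual for a genotype was not tested. The 8 higher bins included chr9:139360001-139370000, centromeric of S2, and chr9:139400001-139410000 and chr9:139410001-139420000, telomeric of it. They did not include the S2 bin or the bins that adjoin it.

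The contact between S4 and S2 was also read from the other side, in other libraries. From the S2 viewpoint, the bin holding S4 took 5.32% and 5.29% in WT and 4.89% and 4.96% in the S4-S5 mutant (log2 -0.11, SE 0.028, edgeR adjusted p = 0.00435). This direction is opposite to that seen from S4, and it turned to 0.20, 0.24 and 0.31 under chromosome 9, TMM and DESeq2 scaling. From the promoter viewpoint, the S4 bin took 1.93% and 1.88% in WT and 2.65% and 2.60% in the mutant (log2 0.47, SE 0.025, edgeR adjusted p = 1.15e-46), a larger rise than the 0.09 seen from S4 toward the promoter. The difference between the 2 directions was not tested. Of all bins tested from these viewpoints, 84.2% differed from S2 and 87.5% from the promoter.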

How the data were processed

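The deposited tables list reads per DpnII fragment end on chromosome 9. Per the file headers, the reads column holds whole-number counts, deposited beside columns that the authors normalized, and it was the only measure used. Per the submitters' processing notes the build is hg19 and deepTools was used; the aligner was not given in the sources used here. Per the labels' protocols, cells were fixed in 2% formaldehyde for 10 min, cut in 3 rounds with DpnII and then with NlaIII or CviQI (which one served S4 is not given), and 200 ng of template was amplified for 16 cycles and read as 150-bp single ends. PCR reads without molecular identifiers are not independent molecules, and counting intervals cover counting error only.

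The viewpoint centre is the middle of the 5-kb window with the most reads. Ends within 5 kb of it were masked. Counts were summed in 10-kb bins, in 10 intervals set by S2, the promoter and S4, and in 1-Mb bins beyond 500 kb. Bins with a mean of at least 10 reads were tested in edgeR 4.0.16 (R 4.3.3, glmQLFit and glmQLFTest), all 10 libraries per viewpoint fitted together, near-cis reads as library size for bins and intervals and reads outside the mask for 1-Mb bins, and Benjamini-Hochberg adjustment. DESeq2 1.42.0 was an alternative. For bins and intervals, chromosome 9 scaling was another, with reads outside the mask as library size. The fits were tested on simulated data. Replicate numbers are shared between genotypes but nothing says that they pair samples: the deviations from the group means correlated from -0.30 to 0.48 over 10 pairs of genotypes.

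Bins named are the 6 largest changes each way that passed the test without overlap, those at S2, the promoter and the viewpoint with their neighbours, the 5 highest in WT outside 50 kb, and the 3 largest 1-Mb changes each way. Fragment ends named are those with the largest differences, chosen after their values were seen. The members and lists were chosen with earlier results of these data known.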

Additional observations from a re-analysis of the deposited data

Results flagged for a closer look

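The S4 by S5 interaction compares the effect of the S4 mutation in S5-mutant cells with its effect in cells that keep S5, as a log2 difference in S4 contacts (edgeR's quasi-likelihood test, 2 libraries a genotype). It passed the test in all 10 intervals, and 87.6% of bins passed it too, so a pass is common here. Values are under near-cis scaling, and over bins the median of 0.37 fell to 0.07 and 0.08 with TMM factors and DESeq2. It was highest between S2 and the promoter (0.62, adjusted p = 9.55e-11), 100 to 500 kb telomeric of S4 (0.54), within 10 kb of the promoter (0.50) and 50 to 100 kb telomeric (0.44), followed by the interval from the promoter to 50 kb before S4 (0.26). It was negative within 10 kb of S2 (-0.31, adjusted p = 7.81e-08), beyond 100 kb centromeric of S2 (-0.28), 5 to 50 kb centromeric of S4 (-0.21), 10 to 100 kb centromeric of S2 (-0.20) and 5 to 50 kb telomeric of S4 (-0.17). The bin holding S2 had -0.62 (adjusted p = 1.04e-11): the S4 and S5 mutants were each above WT there and the double mutant was less than their log2 folds would add to. The bin holding the promoter had 0.45 (adjusted p = 4.04e-07), with the S4 mutant below WT and the double mutant not.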

How the results depend on the processing

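Of 657 values under alternatives, 568 kept their direction and side of the threshold. The S2 rise kept both under all alternatives run except covered ends, which are scaled to a lower total in the mutant and were saturated in this bin (0.36), with 0.76 to 0.80 when a library was left out. The promoter bin was 0.04 to 0.15 when a library was left out, 0.36, 0.33 and 0.36 under chromosome 9, TMM and DESeq2 scaling, 0.00 within 250 kb, -0.17 in covered ends and -0.80 against the S2 mutant. The count of changed bins was 82 to 85 when a library was left out, 162 with 5-kb bins, 50 with 20-kb bins, 44 within 250 kb and 173 within 1 Mb, as more or fewer bins were tested. Counting ends with a read, edgeR called 0 of 63 bins (0 at an unadjusted p under 0.05) and 1 of 10 intervals. With the replicate number as a block, 86 bins and 8 intervals were called, the S2 bin was 0.78, and no call changed direction. Bins of 500 kb gave 173 calls beyond the window. With 20-kb bins the S4-S5 mutant differed from the S4 mutant in 47, from the S5 mutant in 45 and by the interaction in 47.

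Directions turned as follows, in log2 folds. Seen from S2, the S4 bin was 0.20, 0.24 and 0.31 under chromosome 9, TMM and DESeq2 scaling. Under these 3, in the same order, the bin from 139390001 was 0.08, 0.06 and 0.09 and that from 139430001 was 0.23, 0.20 and 0.24. Scaled to chromosome 9, 10 to 100 kb centromeric of S2 was 0.04 and the promoter's 20 kb 0.24. With capped ends the promoter's 20 kb was 0.14 and 5 to 50 kb centromeric of S4 was -0.02, which was -0.33 with a 20-kb mask. On non-blind ends the promoter's 20 kb was 0.24, the next interval toward S4 -0.19, and the bins from 139360001 and 139450001 -0.28 and -0.25. The latter was -0.08 within 250 kb. Covered ends relative to their lower total in the mutant gave 0.15 for 10 to 100 kb centromeric of S2 and 0.12 and 0.09 for the bins from 139390001 and 139500001, though covered ends themselves were fewer in all 3. Without its most covered end, a step added after the data were seen, the bin from 139740001 was -3.82 and that from 139970001 -0.88. Against the S2 mutant, 5 to 50 and 100 to 500 kb telomeric of S4 were -0.22 and 0.14, and the bins from 139390001, 139430001, 139500001, 139530001, 139890001, 139910001 and 139960001 were 1.64, 1.93, 0.08, -0.73, 1.51, 3.48 and -0.42. The causes were not tested. The distal bins held few reads, and 1 end often held most of them.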

Other observations

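Over the 97 bins, the log2 shares of the S4-S5 libraries correlated at 0.832 to 0.833 with WT, 0.850 to 0.863 with the S4 mutant, 0.732 to 0.757 with the S5 mutant and 0.671 to 0.679 with the S2 mutant, as a description over bins of libraries that share a viewpoint and differ in depth. Over fragment ends the order was another: 0.611 to 0.623 with WT, 0.705 to 0.719 with the S4 mutant, 0.708 to 0.716 with the S5 mutant and 0.680 to 0.685 with the S2 mutant. The S4-S5 libraries were thus nearest to the S4 mutant by bins, while the summed intervals centromeric of S2 lay nearest to the S5 mutant.

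The share of near-cis reads on the telomeric side of S4 was 30.1% ± 0.00919 in WT against 27.2% ± 0.215 in the S4-S5 mutant; the share between S2 and S4 was 38.3% ± 0.165 and 44.7% ± 0.600 (SD, n = 2). Non-blind ends held 60.7% ± 1.75 and 60.8% ± 0.256 of near-cis reads, a difference within the spread between replicates.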
